A study of Homo sapiens with 38 samples.

Results

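Palbociclib was given to CHLA20 cells, a human neuroblastoma line, and RNA was sequenced from 2 treated libraries (0.3 µM, that is 300 nM, for 72 h) and 2 control libraries labelled as untreated. All 50778 genes of the count tables are covered, of which 22133 had enough reads over the 16 libraries used here to be tested. Some of these genes have few or no reads in CHLA20. The 4 CHLA20 libraries are 4 of 38 in the series. The other libraries used here are 12 from CHLA15, NB1643 and NB1691 cells, 2 palbociclib and 2 control libraries for each line. CHLA15 received the same dose for the same time as CHLA20, and NB1643 and NB1691 received 3 µM for 72 h. The labels give neither a vehicle nor a time for the controls. Whether the controls were also kept for 72 h is not stated, so drug and time in culture cannot be told apart. Nothing says that libraries of a group came from separate cultures, so p-values measure the spread between these libraries, which may be technical. Each line is 1 population of cells.

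Palbociclib inhibits CDK4 and CDK6, the kinases that pair with D-type cyclins in G1. They phosphorylate the pocket proteins RB1, RBL1 (p107) and RBL2 (p130), which otherwise hold E2F transcription factors in check. Released E2F factors switch on the genes of DNA replication, and a second complex, MuvB with B-MYB and FOXM1, switches on the genes of mitosis. Neuroblastoma arises from the sympathetic branch of the neural crest, and its cells carry parts of the adrenergic neuron programme.

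The levels of single genes below are in CPM, reads on a gene set against the library's size, scaled between libraries by edgeR's TMM factors. The marker sums and the floor are in CPM of the library total without these factors, which were 1.07 to 1.10 in CHLA20. Fold changes are palbociclib against control on the log2 scale with their standard error (SE), and a gene is called when edgeR's quasi-likelihood test gave a Benjamini-Hochberg adjusted p under 0.05. The CHLA20 libraries held 50754913 to 59368626 reads on genes and the other 12 held 45457371 to 93011010, so that 3 counts, the floor used here, lay at 0.0591 CPM or less in CHLA20. The adrenergic factor HAND2 was present, at 399.9 and 404 CPM in the CHLA20 controls. Of the markers of other cell types, those of leukocytes summed to 0.304 to 0.679 CPM over 7 genes, 3 of them at or under the floor, those of endothelium to 0.650 to 2.86 CPM over 5, those of epithelium to 3.18 to 4.47 CPM over 6 and those of Schwann cells and glia to 3.38 to 4.30 CPM over 7. Fibroblast markers summed to 755 to 762 CPM in the controls and 582 to 587 CPM with palbociclib over 10 genes. Among them PDGFRA stood at 208 and 181 CPM in the controls and 128 and 135 CPM with palbociclib and DCN at 96.1 and 111 CPM against 116 and 117 CPM, while FAP did not pass 0.124 CPM in any library. Whether fewer cells of a type or less RNA in each cell lies behind a lower level cannot be told apart in bulk RNA.

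The control libraries differed from each other more than the treated ones did. The SD of the log2 difference between the 2 libraries was 0.157 in the controls and 0.0896 with palbociclib. The difference ran with gene length. Among the genes expressed at 1 CPM or more, control replicate 2 minus replicate 1 had a median of 0.105 (log2) where the exons summed to 4123 bases or less and of -0.0641 where they summed to 7181 bases or more. The treated libraries differed by 0.0148 and -0.00971 in the same classes, and the median response to palbociclib was -0.0246 and 0.00946. Counts that moved by more than 1.5 times without 1 library are given both ways below. This was checked for the genes called, the differences from CHLA15 and the larger counts of some lists. These were the S phase, G2/M, stress response, neuronal, catecholamine, immediate early, cytosolic tRNA synthetase, histone, mesenchymal and cholesterol lists. Counts of the other lists were not redone without 1 library.

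Palbociclib changed a large part of the CHLA20 transcriptome, mostly by small amounts. In all, 6544 genes were called, 29.6% of those tested, of which 3026 rose (13.7%) and 3518 fell (15.9%). Among them 393 rose and 608 fell by more than 1 on the log2 scale, and 82 rose and 155 fell by more than 2. Without 1 treated library the genes that rose numbered 1939 (without palbociclib replicate 1) or 1910 (without replicate 2), and those that fell 2693 or 2641. Of the called genes 6540 had groups that did not overlap and 4 had groups that did. No overlap, where it is given below for a called gene, therefore describes its values and adds no support. The median over all tested genes was 0. Over the 13995 genes with a mean of at least 1 CPM, 19.3% rose and 22.5% fell, which is the background for the mostly well expressed lists below.

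**Figure D1:**
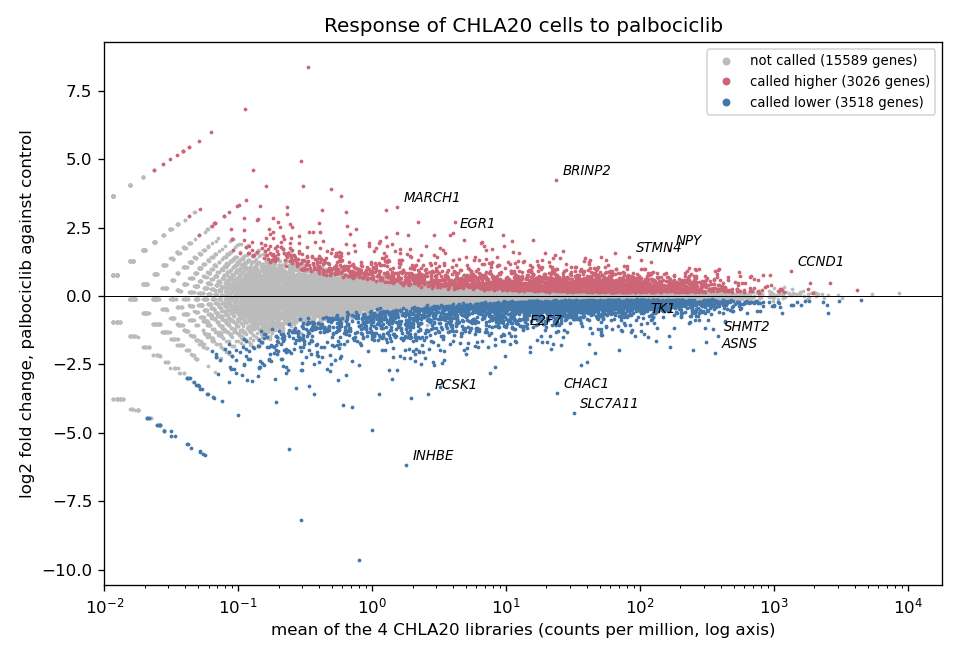
Log2 fold change of each tested gene in CHLA20 cells (vertical axis) against its mean over the 4 libraries (horizontal log axis, CPM), 1 point a gene, with 3026 called higher and 3518 called lower. Among the points marked by name, SLC7A11, CHAC1 and ASNS lie below 0 and BRINP2 lies above it.

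At the target itself, 1 D-type cyclin gene rose and the pocket protein genes RB1, RBL1 and RBL2 fell. CCND1, which encodes cyclin D1 and lies at chr11:69455924-69469242 (GRCh37, plus strand), was at 919 and 906 CPM in the controls and 1739 and 1746 CPM with palbociclib. Both treated libraries were above both controls, and the log2 fold change was 0.93 ± 0.05 (SE; edgeR adjusted p = 1.36e-10). CCND3 was at 23.5 and 27.8 against 29.5 and 28.2 CPM and did not pass the test (edgeR adjusted p = 0.107). CCND2 had no more than 1 read in any CHLA20 library.

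CDK6 was at 486 and 387 CPM in the controls and 435 and 447 CPM with palbociclib, groups that overlapped (log2 0.01 ± 0.08). CDK4 was 248 and 286 CPM in the controls and 227 and 232 CPM after treatment, a small fall (log2 -0.22 ± 0.06, edgeR adjusted p = 0.00792) that was lost without control replicate 2 and when the CHLA20 libraries were fitted alone. RBL1 fell the most of the pocket proteins, from 33.2 and 33.5 to 20.7 and 19.8 CPM (log2 -0.72 ± 0.06). RBL1 is itself an E2F target. RBL2 fell from 63.9 and 59.6 to 51.5 and 51.4 CPM and RB1 from 125 and 129 to 109.8 and 112 CPM, log2 -0.27 ± 0.06 and -0.20 ± 0.06, and the call of RB1 was lost without palbociclib replicate 1.

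The CDK inhibitors fell more often than they rose, 4 of 7 (57.1%) against 1 (14.3%). Of the genes with a mean of at least 1 CPM 22.5% fell and 19.3% rose. CDKN1A, the p21 gene that p53 induces, was at 26.1 and 28.4 CPM in the controls and 19.3 and 19.96 CPM with palbociclib, so that the treated libraries were lower (log2 -0.47 ± 0.06, edgeR adjusted p = 1.01e-05). CDKN1C (p57) fell from 14.6 and 18.02 to 7.14 and 8.95 CPM and CDKN2C (p18) from 68.2 and 75.3 to 53.9 and 56.2 CPM. CDKN2A, the p16 and ARF locus, had low levels that fell from 1.69 and 2.10 to 0.593 and 0.686 CPM (log2 -1.55 ± 0.19). CDKN2D (p19) was the 1 inhibitor of 7 that rose, from 14.6 and 15.98 to 25.1 and 23.3 CPM (log2 0.66 ± 0.08, edgeR adjusted p = 2.73e-06). CDKN1B (p27) stood at 251 and 257 CPM against 237 and 246 CPM, which did not pass the test, and CDKN2B was at or near the floor.

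The E2F family was lower in 6 of 10 members (60%), against 22.5% of the genes with a mean of at least 1 CPM. E2F7 and E2F8, the atypical repressors that are themselves induced in S phase, fell most. E2F7 was at 20.1 and 17.3 CPM in the controls and 8.24 and 7.44 CPM with palbociclib, and E2F8 at 21.0 and 22.7 CPM against 10.1 and 9.95 CPM, with no overlap for either. Their log2 fold changes were -1.26 ± 0.09 and -1.12 ± 0.07 (edgeR adjusted p = 6.7e-09 and 9.4e-10). Of the activators, E2F1 fell from 98.2 and 105 to 77.6 and 76.0 CPM (log2 -0.41 ± 0.06) and E2F2 from 56.7 and 60.2 to 36.3 and 34.4 CPM (log2 -0.73 ± 0.08). E2F3 was at 92.7 and 94.3 CPM against 101 and 99.6 CPM and did not pass the test (edgeR adjusted p = 0.114). The repressor-type E2F4 and E2F6 did not pass it either, with log2 -0.08 ± 0.05 and 0.02 ± 0.06. E2F5 and the partner TFDP1 passed with small falls, log2 -0.27 ± 0.09 and -0.15 ± 0.05, and both calls were lost without control replicate 2 or palbociclib replicate 1, that of TFDP1 also without palbociclib replicate 2. TFDP2 did not pass the test (42.5 and 35.3 CPM against 44.3 and 45.0 CPM). None rose by this test, and the median was -0.21.

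**Figure D2:**
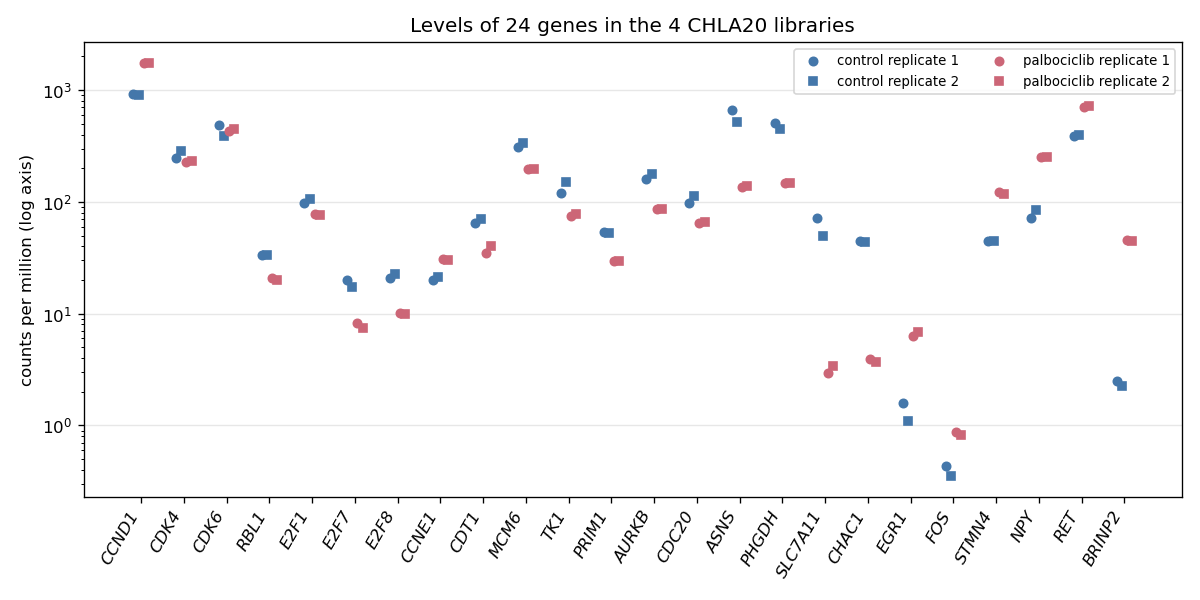
Levels of 24 genes (horizontal axis) in CPM on a log axis, 1 point a library, with controls in blue, palbociclib in red, replicate 1 as circles and replicate 2 as squares. CCND1, CCNE1, EGR1, FOS, STMN4, NPY, RET and BRINP2 sit higher in both treated libraries, CDK6 overlaps, and the replication, mitosis and stress response genes sit lower.

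Genes of DNA replication fell together and by modest amounts. Of 42 S phase genes of the Seurat cell cycle list, 41 fell and none rose, with a median of -0.53, against 15.9% falling and a median of 0 over all tested genes. Origin licensing and firing genes followed with 19 of 25 lower, replication fork genes with 25 of 27 lower and the nucleotide supply genes with 7 of 8 lower (medians -0.49, -0.47 and -0.46).

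CDT1, which loads the MCM helicase at origins, was at 65.2 and 69.9 CPM in the controls and 34.8 and 40.3 CPM with palbociclib (log2 -0.85 ± 0.07, edgeR adjusted p = 5.46e-08). ORC1, a subunit of the origin recognition complex, fell from 41.7 and 46.6 to 24.9 and 26.1 CPM and the helicase subunit MCM6 from 309 and 339 to 199 and 196 CPM (log2 -0.79 ± 0.07 and -0.71 ± 0.05). All 6 MCM2 to MCM7 genes were among the 19 that fell, at log2 values from -0.71 to -0.46. ORC subunits other than ORC1 did otherwise. ORC4 rose slightly (55.0 and 58.8 to 66.7 and 67.0 CPM, log2 0.23 ± 0.06), and ORC2, ORC3, ORC5 and ORC6 did not pass the test, at log2 0.03, -0.12, -0.03 and -0.01.

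At the fork, PRIM1, the primase subunit, was at 54.3 and 52.9 CPM in the controls and 29.5 and 29.3 CPM with palbociclib (log2 -0.87 ± 0.06, edgeR adjusted p = 3.99e-09). CHAF1B of the histone chaperone CAF-1 fell from 42.2 and 42.9 to 24.6 and 24.8 CPM. In nucleotide supply, TK1, thymidine kinase, was at 120.1 and 150.02 CPM in the controls and 75.0 and 78.7 CPM with palbociclib (log2 -0.81 ± 0.09). TYMS, thymidylate synthase and the target of 5-fluorouracil, fell from 284 and 309.5 to 175 and 179 CPM, and RRM2 of ribonucleotide reductase from 327 and 365 to 229 and 232 CPM. The treated libraries of all 5 genes lay below both controls. GINS2, a helicase cofactor, fell from 80.9 and 100.4 to 57.4 and 56.6 CPM.

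Promoters of these genes carried E2F letters often. The RefSeq promoter table gives windows of 250 bases before to 50 after a start site, and 13340 of the 22133 tested genes matched it. An E2F motif (TTTCCCGC, TTTGGCGC, TTTCGCGC or TTTGCCGC on either strand) was found for 18 of the 31 S phase genes with a window (58.1%), for 6.03% of the tested genes, 8.92% of those that fell, 4.15% of those that rose and 3.99% of all 27305 genes of the table. Of the genes that fell by more than 1 on the log2 scale 5.16% held it, below the share of all tested genes. A match is a description of letters and not a site of binding. The windows below are shown because these genes are among the replication, nucleotide and E2F genes that fell. They are 30 bases long, run 5′ to 3′ on the strand of the gene, and the capitals mark 1 match in each (that of MCM6 holds another, TTTGGCGC, which overlaps the one in capitals).
CDT1 (chr16:88870151-88870180, GRCh37, plus strand): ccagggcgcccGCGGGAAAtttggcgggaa
MCM6 (chr2:136634081-136634110, GRCh37, minus strand): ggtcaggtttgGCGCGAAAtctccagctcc
GINS2 (chr16:85722573-85722602, GRCh37, minus strand): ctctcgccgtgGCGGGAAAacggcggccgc
TYMS (chr18:657603-657632, GRCh37, plus strand): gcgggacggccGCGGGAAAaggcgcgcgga
E2F1 (chr20:32274193-32274222, GRCh37, minus strand): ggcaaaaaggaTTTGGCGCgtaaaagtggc
E2F2 (chr1:23857749-23857778, GRCh37, minus strand): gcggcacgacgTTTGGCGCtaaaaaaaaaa

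Of 14 cyclins E, A and B and their kinases and phosphatases 11 fell, and CCNE1 was the 1 that rose. CDK2 was at 96.5 and 105 CPM in the controls and 59.8 and 60.1 CPM with palbociclib (log2 -0.75 ± 0.06, edgeR adjusted p = 1.09e-08), and CCNA2 (cyclin A2) fell from 117 and 130.1 to 81.2 and 79.2 CPM. CCNE1, the cyclin E gene that is a classical E2F1 target, rose from 19.9 and 21.4 to 30.9 and 30.4 CPM (log2 0.57 ± 0.07, edgeR adjusted p = 1.97e-06). Its paralogue CCNE2 fell from 23.0 and 26.2 to 17.1 and 16.4 CPM (log2 -0.55 ± 0.08), and was singled out after its values were seen. CKS2 and CDC25B did not pass the test.

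Genes of mitosis fell by a like amount. Of 54 G2/M genes of the Seurat list 49 fell and 1, HN1, rose (median -0.47). Kinetochore and spindle checkpoint genes fell in 24 of 26, mitotic kinesins and spindle proteins in 21 of 22, and condensin, cohesin and mitotic exit genes in 20 of 21, with medians of -0.43, -0.43 and -0.41. AURKB, the kinase of the chromosomal passenger complex, was at 159.8 and 179 CPM in the controls and 85.6 and 86.1 CPM with palbociclib (log2 -0.98 ± 0.07, edgeR adjusted p = 3.71e-09). CDC20, an activator of the anaphase-promoting complex, fell from 98.2 and 112 to 64.2 and 66.0 CPM, and HMMR, a spindle protein, from 57.2 and 64.4 to 35.7 and 36.7 CPM. NCAPD2 of condensin I fell from 339.6 and 329 to 225 and 219 CPM. All 4 genes had treated libraries below both controls. Of the activators, MYBL2 (B-MYB) fell from 271 and 304 to 195 and 201 CPM and FOXM1 from 346 and 350.3 to 265 and 261 CPM, log2 -0.54 ± 0.06 and -0.40 ± 0.05.

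The cell cycle genes homology region (CHR; TTTGAA or TTCGAA on either strand), the element through which MuvB complexes act, was found in a window of 34 of 44 G2/M genes (77.3%), against 16.1% of the tested genes and 19.5% of all genes of the table. Its share was 18.2% of the genes that fell and 15.5% of those that rose. Among genes past 1 on the log2 scale it was 17.9% of those that fell and 21.9% of those that rose. The CHR was found for 5 of the 31 S phase genes (16.1%), and the E2F letters for 3 of the 44 G2/M genes (6.82%). CCAAT boxes were found for 74.2% of the S phase genes and 70.5% of the G2/M genes, against 42.4% of the tested genes. CDC20, HMMR and NCAPD2 are shown as G2/M genes that fell, again as 30 bases with 1 CHR match in capitals (that of HMMR holds another TTTGAA just before it, in lower case).
CDC20 (chr1:43824576-43824605, GRCh37, plus strand): gacggttggatTTTGAAggagccaataggc
HMMR (chr5:162887605-162887634, GRCh37, plus strand): ggagatttgaaTTTGAAaccggtagggagt
NCAPD2 (chr12:6603112-6603141, GRCh37, plus strand): agccgttgagaTTTGAActcggtatttgtg

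**Figure D3:**
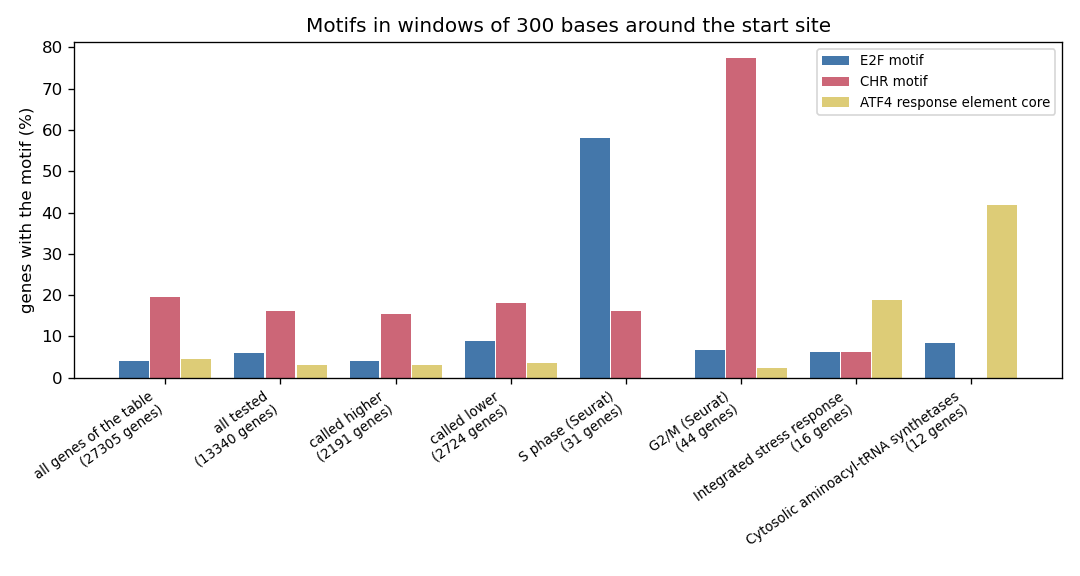
Share of genes with a motif in a promoter window of 300 bases (vertical axis, percent) by gene set (horizontal axis, number with a window), for the E2F motif (blue), the CHR (red) and the ATF4 response element core (yellow). The E2F bar stands at 58.1% for the S phase genes and the CHR bar at 77.3% for the G2/M genes, and the ATF4 bar is tallest, at 41.7%, for the cytosolic tRNA synthetases.

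Histone genes of the replication-dependent clusters fell where they were called at all. Of 90 listed genes 59 were tested, 30 fell, none rose and the median was -0.84. With DESeq2 17 fell, and without palbociclib replicate 1 19 fell. Most of these mRNAs lack a poly(A) tail, and reads of near-identical copies cannot be assigned safely. HIST1H2BK, a histone H2B gene, fell from 52.5 and 69.97 to 10.2 and 11.1 CPM (log2 -2.52 ± 0.12, edgeR adjusted p = 3.19e-11). Repair genes of the recombination and Fanconi anaemia pathways fell in 20 of 25 (median -0.43). BARD1, the partner of BRCA1, fell from 17.9 and 18.6 to 9.94 and 8.75 CPM (log2 -0.96 ± 0.08) and the checkpoint kinase gene CHEK1 from 79.5 and 80.7 to 49.1 and 50.7 CPM.

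Of 7 DNA methylation genes 4 fell (57.1%), of 4 PRC2 genes 3 fell (75%), and none of either list rose. Of the genes with a mean of at least 1 CPM 22.5% fell and 19.3% rose. DNMT1, the maintenance DNA methyltransferase, was at 378 and 366 CPM in the controls and 262 and 260.2 CPM with palbociclib (log2 -0.51 ± 0.05, edgeR adjusted p = 5.54e-07), and UHRF1, which brings it to hemimethylated DNA, fell from 165 and 196 to 125 and 127 CPM. DNMT3B fell slightly (23.2 and 25.3 to 20.7 and 18.5 CPM), DNMT3A did not pass the test (179 and 168 CPM against 197 and 197 CPM), and TET1 fell from 21.3 and 17.4 to 14.2 and 14.0 CPM. The call of DNMT3B was lost without control replicate 2 or palbociclib replicate 2, and that of TET1 without control replicate 1. TET2 and TET3 did not pass the test, at log2 0.06 ± 0.06 and 0.04 ± 0.08. In the PRC2 complex, which methylates H3K27, EZH2 fell from 119 and 122 to 83.7 and 86.5 CPM (log2 -0.50 ± 0.05, edgeR adjusted p = 7.47e-07). EED and SUZ12 fell by less, at log2 -0.36 ± 0.07 and -0.27 ± 0.05, and EZH1 did not pass the test (log2 -0.04 ± 0.09). The H3K27 demethylase gene KDM6B, the subject of the wider study, rose from 90.3 and 80.7 to 117 and 118 CPM (log2 0.46 ± 0.08, edgeR adjusted p = 0.000148), with the treated libraries above both controls. KDM6A was at 25.9 and 25.3 CPM against 26.2 and 26.6 CPM and did not pass it.

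In the MYC network 4 of 12 genes rose (33.3%) and 2 fell (16.7%). Of the genes with a mean of at least 1 CPM 19.3% rose and 22.5% fell. With 12 genes, these shares turn on few calls. MYC itself was at 662 and 707 CPM in the controls and 646 and 649 CPM with palbociclib, a difference that did not pass the test (log2 -0.08 ± 0.09, edgeR adjusted p = 0.594). MYCN had low levels, which fell from 2.89 and 3.39 to 2.01 and 2.20 CPM (log2 -0.57 ± 0.10). MXD1, a MAX partner that represses MYC sites in differentiating cells, rose from 16.6 and 14.8 to 30.9 and 29.1 CPM (log2 0.93 ± 0.07, edgeR adjusted p = 8.01e-09). MXD4 rose from 88.3 and 87.8 to 160.3 and 163 CPM, MNT from 38.6 and 34.8 to 50.8 and 47.4 CPM and MAX by log2 0.20 ± 0.07, a call lost without control replicate 1, palbociclib replicate 1 or palbociclib replicate 2. MXD3, the family member linked to S phase, fell from 26.1 and 30.1 to 15.9 and 16.95 CPM (log2 -0.77 ± 0.08). MGA, MLX, MLXIP, MXI1 and MYCL did not pass the test, with log2 values from -0.12 to 0.07.

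The lowest median of the lists with called genes was that of the integrated stress response, which eIF2 kinases start and the factor ATF4 carries out when amino acids are short or proteins misfold. Of 19 listed members 18 fell and 1, ATF5, rose (median -1.50). ATF4 itself was at 554 and 584 CPM in the controls and 297 and 299 CPM with palbociclib (log2 -0.93 ± 0.05, edgeR adjusted p = 3.01e-10). SLC7A11, the cystine and glutamate exchanger at chr4:139085251-139163503 (GRCh37, minus strand), was at 71.7 and 49.6 CPM in the controls and 2.93 and 3.42 CPM with palbociclib, 19.1-fold lower (log2 -4.26 ± 0.14, edgeR adjusted p = 7.68e-13). The controls of this gene differed by more than the treated libraries did, and the groups were far apart.

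CHAC1, which degrades glutathione, fell from 44.4 and 43.4 to 3.93 and 3.67 CPM (log2 -3.53 ± 0.15, edgeR adjusted p = 8.91e-12). ASNS, asparagine synthetase, fell from 660.2 and 521 to 137 and 139 CPM, and STC2, a secreted glycoprotein, from 80.9 and 68.2 to 16.9 and 17.97 CPM (log2 -2.10 ± 0.10 and -2.10 ± 0.11). ATF3, an ATF4 target counted among the immediate early genes, fell from 15.6 and 16.6 to 3.53 and 3.48 CPM (log2 -2.20 ± 0.14). DDIT3 (CHOP) fell by less than these, from 11.2 and 8.95 to 7.16 and 6.78 CPM (log2 -0.53 ± 0.12). INHBE, an activin subunit gene, had 266 and 159 counts in the controls and 1 and 5 with palbociclib. Its levels were 4.11 and 2.93 CPM against 0.0156 and 0.0780 CPM, and its fitted log2 fold change of -6.19, the lowest at a mean of 1 CPM or more, depends on the prior count.

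The 6 most abundant genes that changed by more than 1 on the log2 scale were SHMT2, ASNS, MTHFD2, PHGDH, GARS and SLC7A5, all of which fell. SHMT2, mitochondrial serine hydroxymethyltransferase, was at 591 and 519.7 CPM in the controls and 202 and 206 CPM with palbociclib (log2 -1.44 ± 0.06). PHGDH and PSAT1, the opening steps of serine synthesis, fell from 507 and 447 to 147 and 149 CPM and from 269 and 259 to 73.1 and 72.1 CPM (log2 -1.69 ± 0.07 and -1.86 ± 0.06; edgeR adjusted p = 7.1e-12 and 7.68e-13). MTHFD2, a mitochondrial folate enzyme, fell from 506 and 469 to 209 and 210.3 CPM and ALDH1L2 from 78.3 and 49.6 to 19.0 and 19.1 CPM. In a list of 17 tested serine and one-carbon genes, written after these values were seen, 12 fell and 1 rose.

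Genes of tRNA charging in the cytosol fell as well. Of 20 cytosolic aminoacyl-tRNA synthetase genes, listed after their values were seen, 18 fell, HARS rose (81.7 and 82.9 to 101 and 97.9 CPM) and FARSA did not pass the test, with a median of -0.47. GARS, glycyl-tRNA synthetase, was at 435 and 408 CPM in the controls and 186 and 186 CPM with palbociclib (log2 -1.18 ± 0.05, edgeR adjusted p = 9.84e-12). CARS fell from 128 and 117 to 53.7 and 50.3 CPM, AARS from 195 and 174 to 83.1 and 79.1 CPM and YARS from 254 and 241 to 111 and 111 CPM. Their mitochondrial counterparts fell in 6 of 17 with a median of -0.09 and none rose. Of 25 amino acid transporters, a list also written afterwards, 12 fell (48%) and 5 rose (20%). The shares were 22.5% and 19.3% of the genes with a mean of at least 1 CPM. SLC7A5 (LAT1) fell from 403 and 387 to 102 and 101 CPM (log2 -1.96 ± 0.08), SLC6A9, a glycine transporter, from 15.8 and 12.7 to 2.26 and 2.45 CPM, and SLC7A3, an arginine and lysine carrier, from 1.75 and 0.904 to 0.0312 and 0.125 CPM.

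The core letters of the ATF4 response element (TGATGNAA, either strand, a search added after the values were seen) were found in windows of 3 of the 16 stress response genes with a window (18.8%) and 5 of 12 cytosolic synthetase genes (41.7%). The share was 3.03% over the tested genes, 3.49% of those that fell, 3.01% of those that rose and 4.46% of all genes of the table. Among genes past 1 on the log2 scale it was 6.63% of those that fell and 5.58% of those that rose. ASNS, CHAC1 and AARS are shown because they fell and hold the element, in capitals.
ASNS (chr7:97501770-97501799, GRCh37, minus strand): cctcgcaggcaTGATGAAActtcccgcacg
CHAC1 (chr15:41245449-41245478, GRCh37, plus strand): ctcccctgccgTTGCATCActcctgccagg
AARS (chr16:70323578-70323607, GRCh37, minus strand): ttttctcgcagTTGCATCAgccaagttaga

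**Figure D4:**
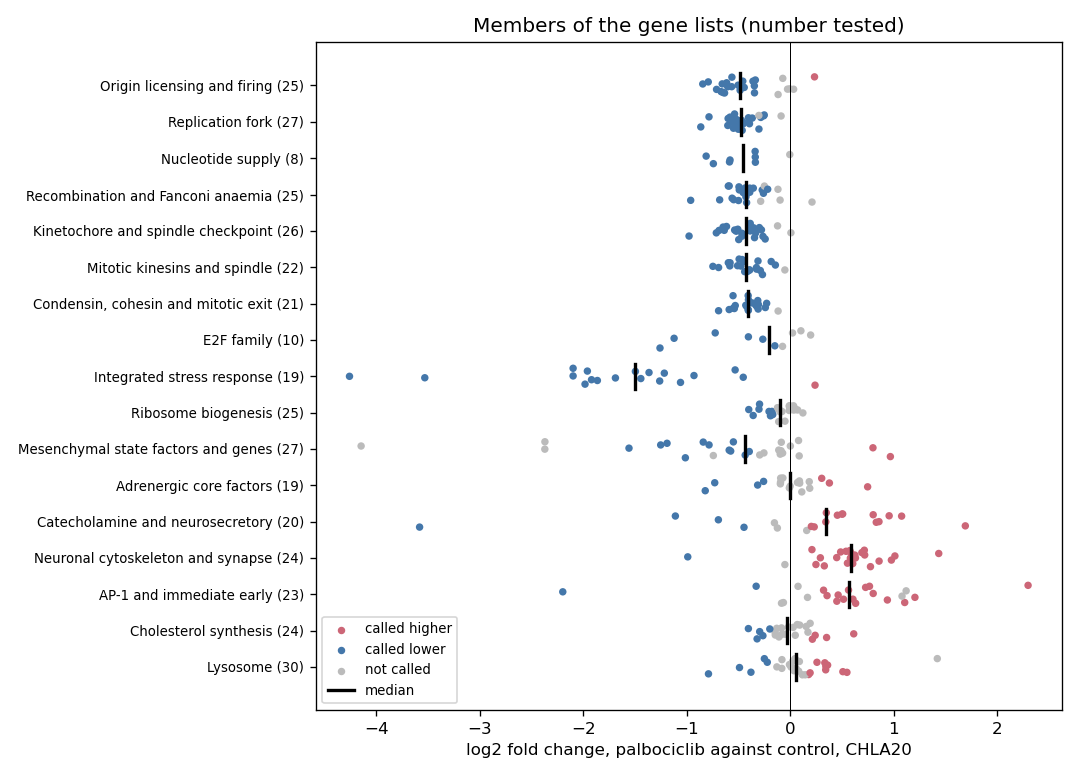
Log2 fold change of each tested member of 17 gene lists in CHLA20 cells (horizontal axis; lists on the vertical axis with the number tested), red where called higher, blue where called lower and grey where not called, with a black bar at the median. The stress response list sits farthest left, at a median of -1.50, and the neuronal and AP-1 lists sit to the right, at 0.58 and 0.56.

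Genes of the neuronal cytoskeleton and synapse rose. Of 24 tested members 22 rose, 1 fell (CNTNAP2) and 1 did not pass the test (NEFH), with a median of 0.58. STMN4, a neuronal microtubule regulator of the stathmin family, was at 44.5 and 44.7 CPM in the controls and 123 and 118 CPM with palbociclib (log2 1.43 ± 0.07, edgeR adjusted p = 3.89e-11). RAB3A, a synaptic vesicle GTPase, rose from 44.8 and 44.3 to 88.6 and 86.7 CPM (log2 0.98 ± 0.06). ANK2, a gene with long exons that encodes a membrane anchor, rose from 175 and 131 to 306 and 310.3 CPM. CNTNAP2, a neurexin-like adhesion protein, fell from 13.0 and 15.9 to 7.32 and 7.19 CPM (log2 -0.99 ± 0.10). NEFH stood at 130.1 and 152 CPM against 136 and 136 CPM.

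Catecholamine and neurosecretory genes rose in 13 of 20 and fell in 4 (median 0.34). NPY, the neuropeptide that sympathetic neurons release with noradrenaline, was at 71.7 and 84.1 CPM in the controls and 249.97 and 252 CPM with palbociclib (log2 1.69 ± 0.07, edgeR adjusted p = 8.33e-12). SLC6A2, the noradrenaline transporter, rose from 18.2 and 21.0 to 41.7 and 40.7 CPM (log2 1.07 ± 0.08). The vesicular transporter SLC18A2 fell at low levels, from 1.72 and 1.48 to 0.733 and 0.749 CPM. PCSK1, a prohormone convertase, fell most, from 4.61 and 4.96 to 0.265 and 0.530 CPM (log2 -3.58 ± 0.24, edgeR adjusted p = 3.03e-09). DBH, CHGA and CPE, at log2 0.16, -0.15 and -0.13, did not pass the test.

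Of the 19 factors of the adrenergic state 3 rose (15.8%) and 4 fell (21.1%), with a median of 0.00. These shares lie near the 19.3% and 22.5% of the genes with a mean of at least 1 CPM. ISL1, a LIM-homeodomain factor of sympathetic neurons, rose from 225 and 228 to 381 and 380.3 CPM (log2 0.75 ± 0.06, edgeR adjusted p = 9.5e-09). HAND1 rose from 57.2 and 65.2 to 77.5 and 81.4 CPM. INSM1 fell from 11.5 and 14.1 to 7.50 and 6.94 CPM and LMO3 from 26.2 and 28.9 to 16.3 and 16.9 CPM (log2 -0.82 ± 0.10 and -0.73 ± 0.09).

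Of the genes of the mesenchymal state 11 of 27 fell (40.7%) and 2 rose (7.41%), with a median of -0.44. The shares were 22.5% and 19.3% of the genes with a mean of at least 1 CPM. PRRX1, MEOX1, MEOX2 and RUNX2 were at or under the floor throughout. COL1A1 was at 106 and 97.4 CPM in the controls and 42.2 and 43.1 CPM with palbociclib (log2 -1.25 ± 0.09, edgeR adjusted p = 6.76e-09). COL1A2, the other chain of the same collagen, was low and rose from 2.16 and 2.84 to 4.59 and 5.15 CPM (log2 0.97 ± 0.17). WWTR1 (TAZ), SOX9 and SNAI2 (SLUG) fell at low levels, by log2 -1.56, -1.19 and -1.01. The summed level of the fibroblast markers, which share COL1A1, COL1A2 and COL3A1 with this list, was lower with palbociclib too, and its part in these values was not tested.

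Of 13 receptors of the sympathetic lineage 4 rose (30.8%) and 3 fell (23.1%), against 19.3% and 22.5% of the genes with a mean of at least 1 CPM. Their log2 fold changes ran from -1.27 to 0.87. RET, the receptor for GDNF family ligands, was at 385 and 393 CPM in the controls and 705 and 717 CPM with palbociclib (log2 0.87 ± 0.07, edgeR adjusted p = 1.25e-08). NTRK3, the neurotrophin 3 receptor, rose from 10.2 and 8.38 to 15.2 and 15.3 CPM. GFRA3, the artemin co-receptor, fell from 19.7 and 19.7 to 12.4 and 11.7 CPM.

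Immediate early genes and feedback inhibitors of ERK signalling rose in 15 of 23, and 2 fell (median 0.56). EGR1, a zinc finger factor induced within minutes of growth factor signals, was at 1.58 and 1.09 CPM in the controls and 6.33 and 6.92 CPM with palbociclib (log2 2.30 ± 0.18, edgeR adjusted p = 2.28e-08). SPRY1, an inhibitor of receptor kinase signalling, rose from 7.05 and 7.10 to 16.3 and 16.3 CPM, and FOS rose at a low level from 0.433 and 0.351 to 0.874 and 0.827 CPM. The 2 that fell were ATF3, given above, and PHLDA1. EGR2 was under the floor, and EGR3 and FOSB did not pass the test.

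BRINP2 rose the most of all genes with a mean of at least 1 CPM. It lies at chr1:177140094-177251558 (GRCh37, plus strand) and belongs to a family of neural proteins named for their induction by BMP and retinoic acid. Its levels were 2.47 and 2.25 CPM in the controls and 45.6 and 44.4 CPM with palbociclib, 19.0-fold higher (log2 4.25 ± 0.15, edgeR adjusted p = 2.23e-12). The next were MARCH1, a ubiquitin ligase gene, from 0.263 and 0.314 to 3.18 and 2.34 CPM, and LINC01561, a non-coding RNA, from 0.278 and 0.221 to 2.07 and 2.46 CPM. RP11-277P12.20 was the fourth in this order. The rest of the highest 12 were GPR22, NWD2, EGR1, RP11-59D5__B.2, RP3-422G23.4, GABRP, NTNG2 and VWF, with log2 values from 2.15 (VWF) to 2.70 (GPR22). GABRP encodes a GABA-A receptor subunit, and rose from 0.665 and 0.646 to 2.92 and 3.20 CPM. NTNG2, a netrin-G, rose from 1.10 and 1.62 to 5.74 and 6.74 CPM. VWF, an endothelial gene, rose from 0.495 and 0.424 to 2.46 and 1.65 CPM and made up most of the endothelial marker sum. Genes with clone-based names may overlap others, and the strand setting of the count is not stated.

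Besides INHBE, SLC7A11, CHAC1, PCSK1 and SLC6A9, the lowest 12 held NXPH4, PLAC1, ULBP1, FGFRL1, ADM2, CA12 and GABRD. NXPH4, a neurexophilin, fell from 5.01 and 2.20 to 0.343 and 0.203 CPM. ULBP1, a ligand of the NKG2D receptor of natural killer cells, fell from 6.29 and 5.48 to 0.655 and 0.515 CPM (log2 -3.33 ± 0.16, edgeR adjusted p = 3.19e-11). ADM2, the adrenomedullin 2 gene, fell from 15.3 and 11.5 to 1.90 and 1.87 CPM and CA12, a carbonic anhydrase, from 2.43 and 2.86 to 0.499 and 0.312 CPM. PLAC1, FGFRL1 and GABRD had log2 fold changes of -3.58, -3.03 and -2.69.

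CHLA15 cells, treated with the same dose for the same time, give the direct comparison. The response differed between the lines for 446 genes (2.02% of those tested; edgeR's quasi-likelihood test of the difference), 254 higher in CHLA20 (1.15%) and 192 lower (0.867%). This count rests on single libraries. It was 1305 without CHLA20 control replicate 1, 284 without control replicate 2, 73 without palbociclib replicate 1 and 50 without palbociclib replicate 2.

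Of the 42 S phase genes 17 fell further in CHLA20. The list's median was -0.53 in CHLA20 and -0.18 in CHLA15, and no member passed the test of the difference in the other direction. The difference was below 0 for 41 of 42 members, against 50.1% of all tested genes and 55.5% of those with a mean of at least 1 CPM. Members were measured in the same libraries, so such a count of signs is not a count of independent observations. The CHLA20 median was -0.61 without control replicate 1 and -0.49 without control replicate 2, so its size depended on the control library. MCM6 had log2 fold changes of -0.71 in CHLA20 and -0.20 in CHLA15 (difference -0.51 ± 0.07 (SE), edgeR adjusted p = 0.00177). RRM2 differed by -0.48 ± 0.09 and E2F1, at -0.41 against 0.04, by -0.45 ± 0.08 (edgeR adjusted p = 0.0107 and 0.0106). G2/M genes had medians of -0.47 and -0.33, and none of the 54 passed the test of the difference. Without 1 library the 17 became 29 (control replicate 1), 11 (control replicate 2), 3 (palbociclib replicate 1) or 1 (palbociclib replicate 2).

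The stress response list had medians of -1.50 in CHLA20 and -1.16 in CHLA15, and 7 of 19 fell further in CHLA20. PSAT1 had log2 -1.86 against -1.16 (difference -0.70 ± 0.08, edgeR adjusted p = 0.000558) and SLC7A5 -1.96 against -1.26 (difference -0.70 ± 0.10, edgeR adjusted p = 0.00226). PHGDH and SHMT2 did not pass, at differences of 0.17 ± 0.09 and 0.25 ± 0.09. The 7 became 3 without palbociclib replicate 1 and 4 without replicate 2.

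Genes of cholesterol synthesis and uptake differed without moving much in CHLA20. Their median was -0.03 in CHLA20 and 0.38 in CHLA15, and 10 differences passed the test. All 24 differences were below 0, against 55.5% of the genes with a mean of at least 1 CPM, and again come from the same libraries. In CHLA20 itself 4 of the 24 rose (16.7%) and 5 fell (20.8%), near the 19.3% and 22.5% of the genes with a mean of at least 1 CPM. FDPS, farnesyl diphosphate synthase, was at 155 and 185 CPM in the CHLA20 controls and 126 and 131 CPM with palbociclib, and its log2 fold changes were -0.41 in CHLA20 and 0.09 in CHLA15 (difference -0.49 ± 0.10, edgeR adjusted p = 0.014). Control replicate 2 was above control replicate 1 for all 24 genes, and without control replicate 2 the CHLA20 median was 0.10 and 2 of the genes fell. The 10 became 17 without control replicate 1, 5 without control replicate 2, 2 without palbociclib replicate 1 and 0 without palbociclib replicate 2.

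**Figure D5:**
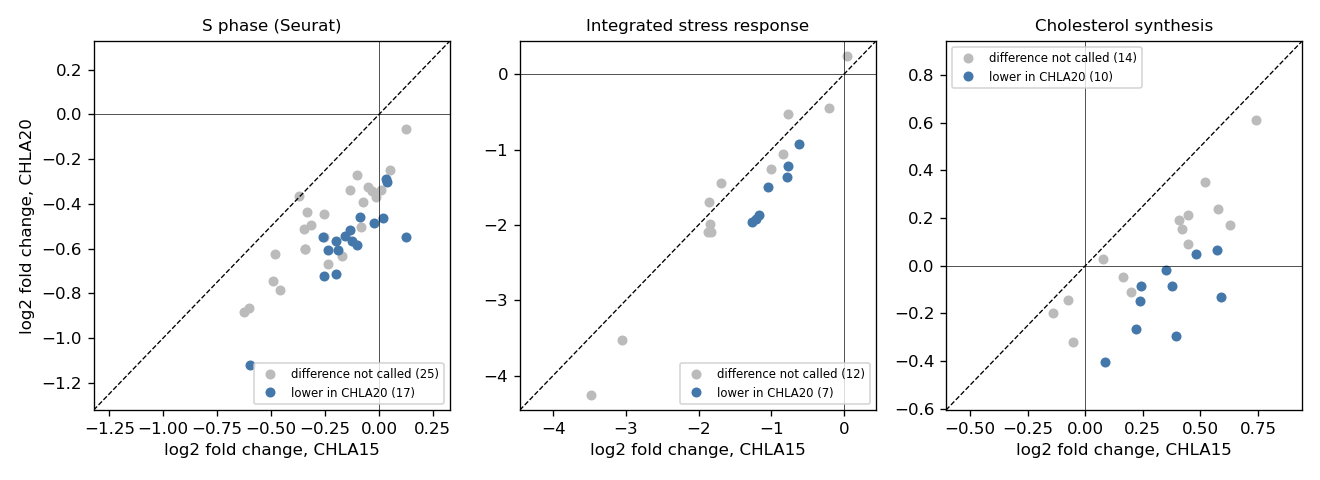
Log2 fold change in CHLA20 (vertical axis) against that in CHLA15 (horizontal axis) for the tested members of 3 lists, 1 point a gene, blue where the difference was called lower in CHLA20 and grey where it was not called, with the dashed line at equal response. The called points number 17 of 42 (S phase), 7 of 19 (stress response) and 10 of 24 (cholesterol), all below the line.

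The genes with the highest and lowest differences include the following. ACCS rose in CHLA20 (1.31 and 1.09 to 1.98 and 2.34 CPM, log2 0.84) and had log2 -0.79 in CHLA15, a difference of 1.63 ± 0.26 (edgeR adjusted p = 0.00404). ELFN1, a synaptic adhesion protein, rose from 1.82 and 1.38 to 3.85 and 3.70 CPM in CHLA20 and had log2 -0.38 in CHLA15. SLC6A17, a vesicular amino acid transporter, did not pass the test in CHLA20 (4.36 and 4.35 CPM against 5.15 and 4.91 CPM) while its log2 in CHLA15 was -1.35 (difference 1.56 ± 0.15, edgeR adjusted p = 8.07e-05). In the other direction POSTN (periostin) fell from 4.21 and 4.17 to 1.36 and 1.31 CPM in CHLA20 with log2 -0.23 in CHLA15, and SHISA3 fell from 16.4 and 16.8 to 5.12 and 4.65 CPM with log2 -0.64 in CHLA15 (difference -1.13 ± 0.15, edgeR adjusted p = 0.000918). The difference for POSTN (-1.42 ± 0.27) was lost without either treated library.

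NB1643 and NB1691 had a 10-fold higher dose, so their values are set beside these with no comparison. The S phase medians were -1.92 in NB1643 and -1.49 in NB1691, and the G2/M medians -2.81 and -2.70. The stress response medians were -0.01 and 0.23, the AP-1 and immediate early medians 0.00 and 0.00, and the neuronal medians 0.49 and 0.60. In CHLA15, at the dose of CHLA20, the AP-1 and immediate early median was 0.67, against 0.56 in CHLA20. The neuronal median was 0.48 in CHLA15 and 0.58 in CHLA20. In each of these 2 lists 1 member passed the test of the difference, lower in CHLA20.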

How the data were processed

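RNA was measured by sequencing in bulk. The authors aligned reads to GRCh37 (hg19) with STAR 2.5.3a and deposited raw counts per gene from HTSeq, 1 table a library (the strand setting is not given in the sources used here). The study's methods name a mouse Gencode release for the counting, although the tables hold human gene symbols, and the labels speak of RNA from xenograft tissue where the methods speak of cells. Whether this bears on the counts or the marker levels was not tested. Base calling used CASAVA according to the submitters' processing notes. The 4 CHLA20 libraries and the 12 palbociclib and control libraries of CHLA15, NB1643 and NB1691 were grouped by the sample labels. Counts from these 16 libraries in 8 groups were filtered by expression, scaled by TMM and fitted with edgeR 4.0.16 in R 4.3.3 (quasi-likelihood F test, Benjamini-Hochberg adjustment, threshold 0.05), with contrasts of palbociclib against control in CHLA20 and of that response against the one in CHLA15. SE is the absolute log2 fold change divided by the square root of F.

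The alternatives were DESeq2 1.42.0, limma-voom (limma 3.58.1, the method the study names), other scalings and filters, the compared libraries alone, the replicate number as a block, each CHLA20 library left out, fold thresholds, and a shorter promoter window. The scripts were tested on simulated data. Gene lists and named genes were chosen with earlier results of these data known. The lists of tRNA synthetases (cytosolic and mitochondrial), amino acid transporters and serine enzymes, the ATF4 motif and the length check were added after the CHLA20 values were seen. Named genes were all members of the CDK4/6, CDK inhibitor, E2F, MYC, DNA methylation, PRC2 and KDM6 lists, up to 4 called members of the largest change in each other list, the 12 highest and 12 lowest genes with a mean of at least 1 CPM and no overlap, the 6 highest and 6 lowest differences from CHLA15, and the 6 most abundant genes past 1 on the log2 scale. Promoter sequences are RefSeq's, on GRCh37. Some genes are not reported here. Precision is limited by 2 libraries a side.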

Additional observations from a re-analysis of the deposited data

Results flagged for a closer look

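The response to palbociclib differed between CHLA20 and CHLA15 for the genes below, by edgeR's test of the difference itself, each with a mean of at least 1 CPM. Values are the CHLA20 log2 fold change minus that in CHLA15. Whether a difference was kept without 1 library was checked gene by gene only for the 6 highest and 6 lowest differences. For the other genes listed, E2F1, MCM6, PSAT1 and BRINP2 among them, it was not checked. The counts of differences without 1 library, given above, bear on these genes too.

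Among replication and cell cycle genes, the difference was -0.45 for E2F1, -0.52 for E2F8, -0.51 for MCM6, -0.48 for RRM2, -0.36 for MYBL2, -0.39 for CHEK1 and -0.38 for UHRF1, and for the histone gene HIST1H2BK -0.79. Each of these genes fell in CHLA20.

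Among stress response, serine and tRNA charging genes, the difference was -0.70 for PSAT1, -0.70 for SESN2, -0.70 for SLC7A5, -0.45 for MTHFD2, -0.44 for GARS, -0.38 for CARS and -0.31 for YARS. It was -1.21 for ULBP1 and -0.49 for FDPS, of cholesterol synthesis. The difference for ULBP1 was lost without palbociclib replicate 2.

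Genes that stood higher in CHLA20 included RP11-54O7.3 (1.69), ACCS (1.63), ELFN1 (1.60), SLC6A17 (1.56), CTB-12A17.2 (1.54), VWF (1.43), BRINP2 (1.16), GABRP (1.06), NTNG2 (0.92), HAND1 (0.41) and the proton pump gene ATP6V0A1 (0.37). The difference for VWF was lost without control replicate 2 or palbociclib replicate 1, and that for CTB-12A17.2 without palbociclib replicate 2.

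Genes that stood lower included POSTN (-1.42), CA12 (-1.30), SHISA3 (-1.13), SHISA2 (-1.03) and CNTNAP2 (-0.72). RN7SL1, the signal recognition particle RNA, had a difference of -2.50, and since it has many near-identical copies its counts are uncertain. The difference for RN7SL1 was lost without control replicate 1, palbociclib replicate 1 or palbociclib replicate 2, that for SHISA2 without palbociclib replicate 1, that for POSTN without either treated library, and that for CA12 without control replicate 2 or either treated library.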

How the results depend on the processing

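Of the 6544 genes called, 2659 had an absolute log2 fold change above 0.5 (1199 higher, 1460 lower) and 1001 above 1 (393 higher, 608 lower). DESeq2 called 6130 and limma-voom 6620. Leaving out 1 CHLA20 library gave 4551 to 6364 calls, 1910 to 2597 of them higher and 2641 to 3767 lower, where the lone library was assumed to vary like the other groups.

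The 446 differences from CHLA15 became 808 with DESeq2 (516 lower), 846 without the filter (486 higher, 360 lower), 239 with the 8 libraries alone (135 higher, 104 lower) and 61 above 1 on the log2 scale (45 higher, 16 lower). With 1 library left out they ranged from 50 to 1305, with 26 to 560 higher and 24 to 745 lower. Members below CHLA15 ranged from 1 to 29 (S phase), 3 to 8 (stress response) and 0 to 17 (cholesterol). With DESeq2 S phase gave 32. Cholesterol gave 6 with limma-voom, 5 with library totals and 5 with the compared libraries alone.

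The neuronal median ranged from 0.53 to 0.59 with 1 library left out. The histone median was -0.73 with at least 10 counts in every library, and the histone genes that fell numbered 17 with DESeq2 and 19 to 27 with 1 library left out. The cholesterol median was -0.03, was -0.16 without control replicate 1 and turned to 0.10 without control replicate 2, and its 5 genes that fell became 2 with the CHLA20 libraries alone and 2 to 11 with 1 library left out. The cause of these changes was not tested.

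In the 150 bases around the start site the E2F motif was found for 5.21% of the genes that fell, 2.10% of those that rose and 3.12% of those tested. The CHR was found for 8.96%, 6.80% and 7.06%, and the CCAAT box for 31.8%, 28.8% and 28.4%. The named results were genes called in the main fit and the 6 highest and 6 lowest differences from CHLA15. The alternatives refit the same libraries, so a kept direction was likely beforehand. Of 2417 values of 187 named results under the alternatives, 92 lost their call and none changed direction.

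Same-numbered libraries shared only a number, with 2 pairs a line and a correlation of their deviations of 0.128 in CHLA20. The replicate block gave 6681 calls (3118 higher, 3563 lower) and 591 differences from CHLA15, and 6 of the 187 named results lost their call. Depth limits genes near the floor of 3 counts.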

Other observations

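Targets of p53 did not move one way. Of 22 tested, 5 rose (22.7%) and 8 fell (36.4%), with a median of -0.07. Over the genes with a mean of at least 1 CPM 19.3% rose and 22.5% fell. These shares stand beside the list counts that follow. PLK2, a polo-like kinase, was at 68.3 and 74.3 CPM in the controls and 170.5 and 169 CPM with palbociclib (log2 1.25 ± 0.06, edgeR adjusted p = 7.02e-11), while SESN2, which ATF4 also induces, fell from 34.8 and 33.4 to 9.30 and 8.72 CPM. MDM2 was at 63.3 and 65.4 CPM against 62.6 and 66.7 CPM and did not pass the test.

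In the BCL2 family 5 of 16 rose (31.3%) and 3 fell (18.8%). BCL2, the anti-apoptotic founder of the family, rose from 305 and 263 to 435 and 429 CPM (log2 0.61 ± 0.06, edgeR adjusted p = 3.75e-07). PMAIP1 (NOXA) fell from 102 and 106 to 42.5 and 43.1 CPM, and HRK rose at a low level from 0.866 and 0.627 to 1.64 and 2.14 CPM.

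Of 19 secretory factors of senescence 2 rose (10.5%) and 4 fell (21.1%). IGFBP3 rose from 12.6 and 14.9 to 28.3 and 29.8 CPM, and IGFBP5, IGFBP4 and VEGFA fell, at log2 -1.06, -0.97 and -0.62. Lysosomal genes rose in 9 of 30 and fell in 5. MCOLN1, a lysosomal calcium channel, rose from 19.5 and 21.8 to 29.3 and 30.9 CPM and TFEB, a regulator of lysosome genes, fell from 5.26 and 5.61 to 3.12 and 3.15 CPM.

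Of 18 MHC class I genes 2 rose (11.1%) and 6 fell (33.3%). HLA-E fell from 1.005 and 0.775 to 0.203 and 0.281 CPM and HLA-C from 1.04 and 0.756 to 0.406 and 0.296 CPM, and reads of these related genes may be shared. B2M stood at 160.1 and 202 CPM against 168 and 175 CPM and did not pass the test. Of 23 interferon response genes 1 rose (4.35%) and 6 fell (26.1%). In ribosome biogenesis 8 of 25 genes fell and none passed the test upward, with NPM1 at 1207 and 1308 CPM in the controls and 949.6 and 954 CPM with palbociclib.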
